A study of Mus musculus with 48 samples.

Results

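The genes described are 7 astrocyte genes for the handling of potassium, sodium, bicarbonate, chloride and water: Kcnj10, Kcnj16, Atp1b1, Atp1b2, Slc4a4, Slc12a2 and Aqp4. They were chosen by name and matched by symbol to the Ensembl gene IDs of the count files, where they are 7 of 47643 listed genes. All 7 passed the filter on low counts and stand among the 14618 genes tested.

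Active neurons release potassium, and astrocytes clear it from the narrow space around the synapse. Inward rectifier potassium channels, formed by the products of Kcnj10 (Kir4.1) and Kcnj16 (Kir5.1), pass potassium across the astrocyte membrane, and the sodium pump, whose beta subunits include the products of Atp1b1 and Atp1b2, imports potassium in exchange for sodium. Slc4a4 encodes the sodium bicarbonate cotransporter NBCe1, Slc12a2 the sodium, potassium and chloride cotransporter NKCC1, and Aqp4 the main water channel of brain astrocytes, a protein best known from the end-feet on blood vessels.

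Ribosome-bound RNA was taken from the dorsal hippocampus, on one side from entire astrocytes (Astro) and on the other from the perisynaptic processes of these cells (PAP), thin branches that lie at synapses. Each of 3 mice, labelled C1 to C3 and called animals 1 to 3 here, gave both kinds of sample, and each sample was sequenced as 8 technical replicates, 48 files in all. The technical replicates were summed, which left 6 pooled libraries and n = 3 animals per group. The question set by the design is which ribosome-bound transcripts differ in level between the processes and the whole cell.

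Every mouse in both groups was of the strain Tg(Aldh1l1-eGFP/Rpl10a) JD130Htz, written Aldhl1:L10a-eGFP by the submitters, and no other allele, treatment or age is given in the sources used here. In this strain the ribosomal protein L10a, fused to enhanced green fluorescent protein (GFP), is made from regulatory sequence of Aldh1l1, so that an antibody to GFP pulls down ribosomes from cells in which that gene's promoter is active. How the processes were separated from the rest of the tissue is not given in the sources used here. In such bulk samples, fewer astrocyte fragments and less RNA per fragment cannot be told apart.

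The Astro libraries held 18707844 to 20293538 counts and the PAP libraries 1829962 to 2980984. Expressed as CPM, which puts every library on the same total, 3 counts made a floor of 0.148 to 0.160 in Astro libraries and of 1.01 to 1.64 in PAP libraries. Replicates also lay further apart in PAP, where the biological coefficient of variation estimated by edgeR was 1.61, against 0.335 in Astro. The 12 astrocyte markers were detected in every Astro library, and in PAP only Fgfr3 (animal 1) and Agt (animal 3) were at 0. Their summed level was 23627 to 31759 CPM in Astro and 3548, 8300 and 13945 CPM in PAP animals 1 to 3, and edgeR called 5 of the 12, each lower in PAP. The summed level of 8 B lineage markers went the other way, from 39.6 to 63.6 CPM in Astro to 5778, 3555 and 2739 CPM in PAP, although Cd79a and Ighm were at 0 in all 3 PAP libraries. The neuron list (12 markers) summed to 1097 to 1764 CPM in Astro and 571 to 1380 CPM in PAP, with Syt1 called higher (1.40, edgeR adjusted p = 0.0414) and Snap25 called lower (-2.22, adjusted p = 0.0296). The oligodendrocyte list (10 markers) summed to 831 to 914 CPM in Astro and 612 to 1063 CPM in PAP, and the microglia list (9 markers) to 43.9 to 95.9 and 31.4 to 60.7 CPM. Of the latter Cx3cr1, P2ry12, Tmem119 and Aif1 were at 0 in every PAP library, whereas C1qb stood at 6.70 to 9.51 CPM in Astro and at 26.0, 29.9 and 0 CPM in PAP animals 1 to 3, and C1qa and C1qc at 16.5 and 19.8 CPM in PAP animal 3. The Astro levels of Cx3cr1, Tmem119 and Aif1 were 0.812 to 3.58 CPM, near the PAP floor. The oligodendrocyte precursor list (6 markers) summed to 233 to 293 CPM in Astro and to 0, 218 and 209 CPM in PAP animals 1 to 3. The endothelial list (8 markers) summed to 11.2 to 28.9 and 14.9 to 24.5 CPM, with Cldn5, Cdh5, Slco1a4 and Itm2a at 0 in every PAP library. Of that list Cdh5 was also at 0 in Astro animals 1 and 2, and Ly6c1 stood at 1.45, 1.88 and 1.73 CPM in Astro and 23.0, 3.09 and 12.9 CPM in PAP. The part that these lists have in the results below was not tested.

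Unless stated otherwise, levels are CPM scaled by TMM factors, which align the libraries on the bulk of their genes, and log2 fold changes are PAP against Astro from edgeR's quasi-likelihood test with Benjamini-Hochberg adjustment over all tested genes. Of the 7 genes only Atp1b2 passed an adjusted p of 0.05, in the direction of a lower level in PAP, while 21.3% of all tested genes passed in either direction, 15.4% as lower and 5.92% as higher. In a fit that blocks on the animal 0 of the 7 were called, against 0.91% of all tested genes. The PAP libraries lay below all Astro libraries for 4 of the 7 genes (Kcnj16, Atp1b2, Slc4a4 and Aqp4), against 35.1% of all tested genes. The same 4 genes were lower in PAP within each of the 3 animals, against 40% of all tested genes. The median log2 fold change was -1.54 over the 7 genes and -0.53 over all tested genes.

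These directions depend on the scaling. When libraries were instead aligned on the 12 astrocyte markers, a choice made after seeing the data, the median of all tested genes moved to 1.62. Each of the 7 fold changes was then positive, from 0.18 for Atp1b2 to 3.04 for Slc12a2, which was already positive under TMM scaling (0.28). In that fit 0 of 7 were called, against 23.2% of all tested genes. With marker scaling and the block together 0 of 7 were called as well, against 5.09%. At an unadjusted p under 0.05 the fit with marker scaling alone held 1 of the 7, Atp1b1, the fit with the block alone 2, and the fit with both 0. The share of all tested genes at that level is not given here. Relative to the median of all genes in the same fit, 6 of the 7 lay below it under TMM scaling and the same 6 under marker scaling, with Slc12a2 the exception in both, whereas in the fit with TMM scaling and the block Kcnj10, Atp1b1 and Slc12a2 lay above it. Without the block those relative values were -1.25 and -1.44 for Atp1b2, -1.02 and -1.24 for Aqp4, -1.95 and -1.26 for Kcnj16, and -0.01 and -0.31 for Atp1b1. With the block they were -0.24 and -0.22 for Atp1b2 and -0.07 and -0.03 for Aqp4.

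**Figure D1:**
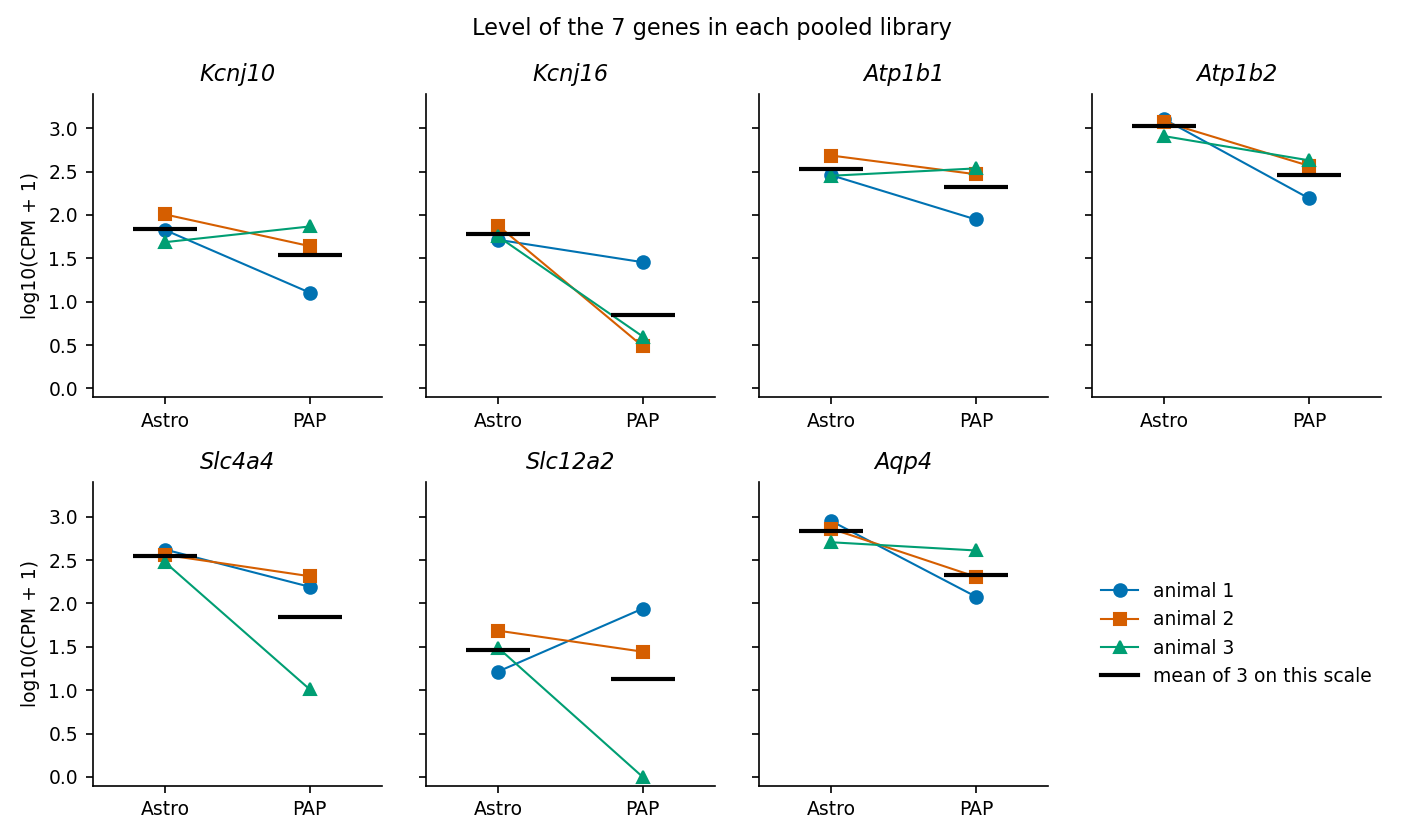
Level of each of the 7 genes in the 6 pooled libraries, as log10 of TMM-scaled CPM plus 1. Lines join the Astro and PAP library of one animal and black bars are means of 3 libraries on this scale. The PAP points lie below all Astro points for Kcnj16, Atp1b2, Slc4a4 and Aqp4, an ordering that holds for TMM scaling.

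**Figure D2:**
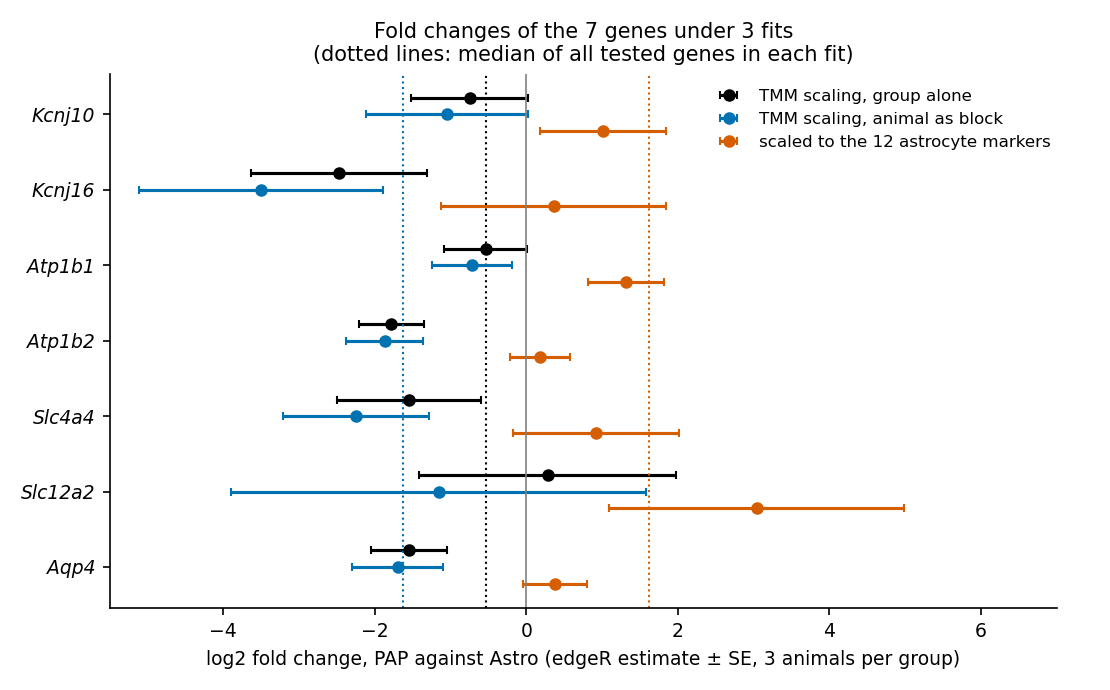
Log2 fold change of PAP against Astro for the 7 genes, as edgeR estimates with SE from 3 animals per group, from a fit of group alone, one that blocks on the animal, and one scaled to the 12 astrocyte markers. Dotted lines mark the median of all 14618 tested genes in each fit. Every estimate is positive under marker scaling, and 6 of 7 are negative under TMM scaling without the block.

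The RNA-binding protein Quaking is known in glia for binding short elements in 3′ untranslated regions, so the transcripts were read for its core motif, ACTAAC or ACTAAT, on the transcript's strand. The motif occurred in 4 of the 7 genes, 3 times in Slc4a4, 2 times in Aqp4 and once each in Kcnj10 and Slc12a2. It did not occur in the windows of Kcnj16, Atp1b1 and Atp1b2. Between 57.5% and 70.8% of tested genes with a 3′ untranslated region of like length (0.8 to 1.25 times) hold it for the former 4 genes, and 30.2% to 49.2% for the latter 3. Over all 12611 tested genes read, 34.2% hold it. The sites of Kcnj10 and Slc4a4, which code for a potassium channel and a bicarbonate cotransporter, are shown with the motif in capitals, 5′ to 3′ from GENCODE M21 transcripts on GRCm38, all on the plus strand.
Kcnj10, chr1:172372578-172372601: gcaagctttACTAACagccacggc
Slc4a4, chr5:89238105-89238128: agttcccacACTAACaagcagaac
Slc4a4, chr5:89238458-89238481: gcagaaactACTAATggttttgta
Slc4a4, chr5:89239467-89239490: caatatattACTAATaatgttttt
A match describes the letters and is no evidence of binding, and no match says only that these letters are not in this window.

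The potassium channel genes showed different patterns in the processes. Kcnj10 (chromosome 1, 172341210 to 172374085, plus strand, GRCm38; exons of 5407 bases) encodes the pore-forming subunit Kir4.1, which works alone or with Kir5.1. Its level was 66.1, 100.5 and 47.6 CPM in Astro animals 1 to 3 and 11.7, 42.8 and 72.7 CPM in PAP. The groups overlapped: PAP was lower in animals 1 and 2 and higher in animal 3. The log2 fold change of Kcnj10 was -0.75 ± 0.78 (SE, n = 3 per group; edgeR adjusted p = 0.613), and 1.01 under marker scaling.

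Kcnj16 (chromosome 11, 110968033 to 111027968, plus strand; exons of 3936 bases) encodes Kir5.1, which alters the conductance and pH sensitivity of the channel when joined to Kir4.1. It stood at 50.8, 74.3 and 55.5 CPM in Astro and at 27.6, 2.06 and 2.97 CPM in PAP. The last 2 of these rest on 4 and 9 counts, with 95% Poisson intervals of 0.562 to 5.28 and 1.36 to 5.65 CPM, against 20.7 to 36.0 CPM in animal 1. These intervals cover counting error only and do not test a difference between animals. All PAP libraries lay below all Astro libraries, but the PAP spread was wide, and the log2 fold change of -2.47 ± 1.16 had an edgeR adjusted p of 0.214, and turned to 0.36 under marker scaling. Without PAP animal 1 it was -4.60 with an adjusted p of 0.0217, so that 1 library decided the call.

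Per exonic base, Kcnj16 and Kcnj10 counts were near parity in whole astrocytes, at Kcnj16-to-Kcnj10 ratios of 1.06, 1.02 and 1.60. In PAP the ratio was 3.23 in animal 1 and 0.0662 and 0.0562 in animals 2 and 3. A ratio within a library does not depend on how the libraries are scaled. The PAP libraries therefore fell on both sides of the Astro values, and the log2 difference of -2.39 did not pass a two-sided exact permutation test (p = 0.4, adjusted over 2 ratios 0.4, where the smallest possible p is 0.1). Paired by animal it was -2.39 ± 2.02 (SE; exact sign-flip p = 0.5), and it was -4.30, -1.49 and -1.37 without PAP animal 1, 2 or 3 in turn.

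Of the sodium pump beta subunit genes, Atp1b2 passed the test and Atp1b1 did not; their ratio is given below as the measure of the difference. The beta subunit guides the pump's catalytic alpha subunit to the membrane, and the product of Atp1b2, also known as the adhesion molecule on glia, is the form best known from astrocytes. Atp1b2 (chromosome 11, 69599736 to 69605942, minus strand; exons of 4085 bases) stood at 1267, 1181 and 809 CPM in Astro and at 155, 368 and 425 CPM in PAP. The groups did not overlap, and within animals 1 to 3 the Astro level was 8.19, 3.21 and 1.90 times the PAP level. The transcript fell by 1.78 ± 0.43 on the log2 scale (SE, n = 3 per group; edgeR adjusted p = 0.0301), a change that became 0.18 (adjusted p = 0.740) under marker scaling. With the animal as a block the log2 fold change of Atp1b2 was -1.87 and its adjusted p 0.206, and the call was also lost without any 1 of the Astro libraries or without PAP animal 2 (adjusted p = 0.0548 to 0.134).

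Atp1b1 (chromosome 1, 164437109 to 164458355, minus strand; exons of 3081 bases) encodes the more widely expressed beta subunit, abundant in neurons and in the choroid plexus. Its level was 286, 483 and 282 CPM in Astro and 87.8, 294 and 343 CPM in PAP, so the groups overlapped and animal 3 had more in PAP. The log2 fold change was -0.54 ± 0.55 (edgeR adjusted p = 0.604), and 1.31 under marker scaling. Of its exonic bases 575 overlap Nme7 on the opposite strand, and the strand setting of the counting is not given in the sources used here, so the Atp1b1 values carry that uncertainty. For Nme7 itself the files gave 2669, 3208 and 3364 counts in Astro and 25, 250 and 411 in PAP.

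Set against each other within a library, the subunits gave an Atp1b1-to-Atp1b2 ratio per exonic base of 0.300, 0.543 and 0.462 in Astro and 0.753, 1.06 and 1.07 in PAP. All 3 PAP ratios were above all 3 Astro ratios, and the ratio was higher in PAP in 3 of 3 animals. The log2 difference was 1.17, from a mean of -1.24 ± 0.44 to -0.08 ± 0.29 (SD, n = 3). The two-sided exact permutation test gave p = 0.1, the smallest that 3 libraries against 3 allow, and 0.2 adjusted over 2 ratios. Paired by animal, with the replicate block, the log2 difference was 1.17 ± 0.107 (SE of 3 within-animal differences), larger than its spread, and an exact sign-flip test gave p = 0.25, the smallest that 3 pairs allow. Neither exact test can pass 0.05 with 3 animals. Because Atp1b1 is also strong in choroid plexus, the markers of that tissue are given with Slc12a2.

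**Figure D3:**
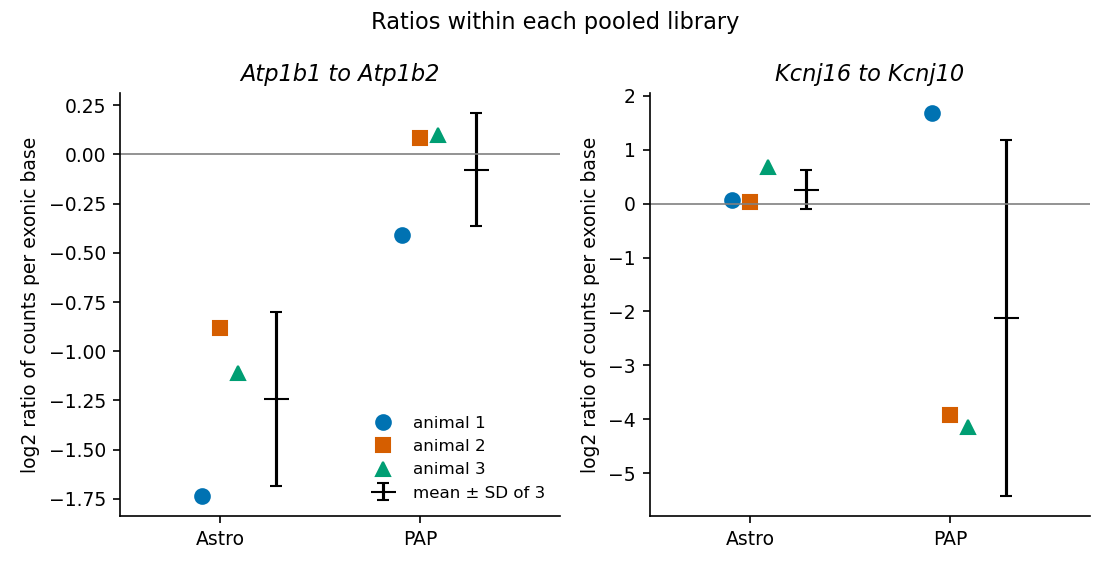
Log2 ratio of counts per exonic base of Atp1b1 to Atp1b2 and of Kcnj16 to Kcnj10 in each pooled library, with the mean and SD of 3 libraries beside the points. The Atp1b1-to-Atp1b2 ratio is higher in PAP in each animal, whereas the Kcnj16-to-Kcnj10 ratio in PAP lies above the Astro values in animal 1 and below them in animals 2 and 3.

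The bicarbonate and chloride cotransporter genes each had 1 PAP library far below the others, in animal 3. Slc4a4 (chromosome 5, 88886818 to 89239653, plus strand; exons of 10815 bases) stood at 418, 362 and 298 CPM in Astro and at 155, 205 and 9.25 CPM in PAP. The PAP libraries were all below the Astro libraries, with animal 3 far under the other two. NBCe1 carries sodium with bicarbonate and so links the astrocyte's membrane voltage to pH. The log2 fold change was -1.55 ± 0.95 (edgeR adjusted p = 0.353), and 0.92 under marker scaling. Without PAP animal 3 it was -1.06 with an adjusted p of 0.0494, so that leaving out the lowest library brought a smaller change past the threshold.

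Slc12a2 (chromosome 18, 57878678 to 57946821, plus strand; exons of 10920 bases) encodes NKCC1, which loads cells with chloride and takes part in cell volume control. In whole astrocytes it stood at 15.4, 47.6 and 29.9 CPM. In PAP it stood at 86.2, 26.8 and 0 CPM: no count was found in any of the 8 technical replicates of PAP animal 3, which allows up to 0.991 CPM at the floor of 3 counts. Animal 1 was thus higher in PAP, animal 2 was 1.78 times higher in Astro, and animal 3 was at least 30.2-fold lower in PAP against that library's floor. The log2 fold change of 0.28 ± 1.69 (edgeR adjusted p = 0.942) has no stable sign. It was -1.16 with the animal as a block and -1.25 without PAP animal 1.

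NKCC1 is also abundant in choroid plexus epithelium, so the 10 markers of choroid plexus and ependyma were read beside it. Their sum was 2541, 20296 and 4655 CPM in Astro animals 1 to 3, and 173, 963 and 329 CPM without Ttr, the order in which Slc12a2 stood in the same libraries. Kcnj10, Kcnj16 and Atp1b1 were also highest in Astro animal 2. In PAP the sum was 652, 6490 and 6697 CPM, and 12.2, 398 and 84.6 CPM without Ttr, with 7, 4 and 6 of the 10 markers at 0. PAP animal 1, the PAP library with the most Slc12a2, had the lowest CPM of this list, with Folr1, Kcnj13 and Clic6 at 0. The part that choroid plexus has in the levels of Slc12a2 and the other genes was not tested. Of the 10 markers edgeR called 4 lower in PAP, against 15.4% of all tested genes: Otx2, Foxj1, Ccdc153 and Tmem212, each at 0 or 1 count in every PAP library. Ttr was not called (-0.96, adjusted p = 0.629).

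Aqp4 (chromosome 18, 15389496 to 15410982, minus strand; exons of 6233 bases) encodes the channel through which water crosses the astrocyte membrane. It stood at 891, 727 and 507 CPM in Astro and at 119, 202 and 407 CPM in PAP. All PAP libraries were below all Astro libraries, yet the gap differed between animals: the Astro level was 7.50, 3.60 and 1.24 times the PAP level in animals 1 to 3. The log2 fold change of -1.54 ± 0.50 did not pass (edgeR adjusted p = 0.0806), and was 0.38 under marker scaling. DESeq2 called Aqp4 (-1.49, adjusted p = 0.00709), and so did edgeR without PAP animal 3 (-2.21, adjusted p = 0.0212). Other fits moved away from a call. The edgeR adjusted p was 0.206 with the block, 0.13 after thinning and 0.15 to 0.278 without any 1 Astro library. By voom the adjusted p of Aqp4 was 0.477.

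Across the PAP libraries the genes fell into different orders. Kcnj10, Atp1b1, Atp1b2 and Aqp4 were lowest in animal 1 and highest in animal 3. The summed astrocyte markers had the same order, and so did the summed choroid plexus and ependyma markers with Ttr. Within the astrocyte list Sox9 (90.3, 43.8 and 83.9 CPM in PAP animals 1 to 3), Fgfr3 (0, 152 and 22.5) and Agt (8.67, 22.7 and 0) took other orders. The remaining astrocyte markers took the order of the sum. Kcnj16 and Slc12a2 were highest in animal 1, and Slc4a4 was highest in animal 2 and lowest in animal 3. With 3 libraries these orders are a description only, and the part that astrocyte content has in them was not tested. Together the 7 genes took 0.275%, 0.271% and 0.205% of all counts in the Astro libraries and 0.0687%, 0.121% and 0.128% in PAP.

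Levels of different genes can be compared only per length, for which counts were divided by exonic length and scaled to a common total over all genes (TPM). In Astro, Atp1b2 was first at 655 ± 109 TPM (SD, n = 3), above Atp1b1 at 280 ± 75.3 and Aqp4 at 280 ± 63.6, whose libraries overlapped. Slc4a4 followed at 82.3 ± 10.1 TPM, then Kcnj16 at 37.9 ± 6.37 and Kcnj10 at 32.3 ± 9.99, whose ranges overlapped although Kcnj16 was the higher in 3 of 3 libraries. Slc12a2 was last at 7.01 ± 3.39 TPM.

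In PAP the beta subunits could not be ordered, with Atp1b1 at 181 ± 101 TPM and Atp1b2 at 179 ± 79.7 TPM. Aqp4 stood at 90.1 ± 54.8 TPM, and its lowest library was above the highest of Slc4a4, at 26.4 ± 21.7 TPM. Kcnj10 at 18.1 ± 13.0, Slc12a2 at 8.07 ± 9.51 and Kcnj16 at 6.47 ± 8.65 TPM overlapped in their ranges. The most abundant water and pump genes of the whole astrocyte were thus also the most abundant of the 7 in the processes, while the order among the rest was not resolved.

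**Figure D4:**
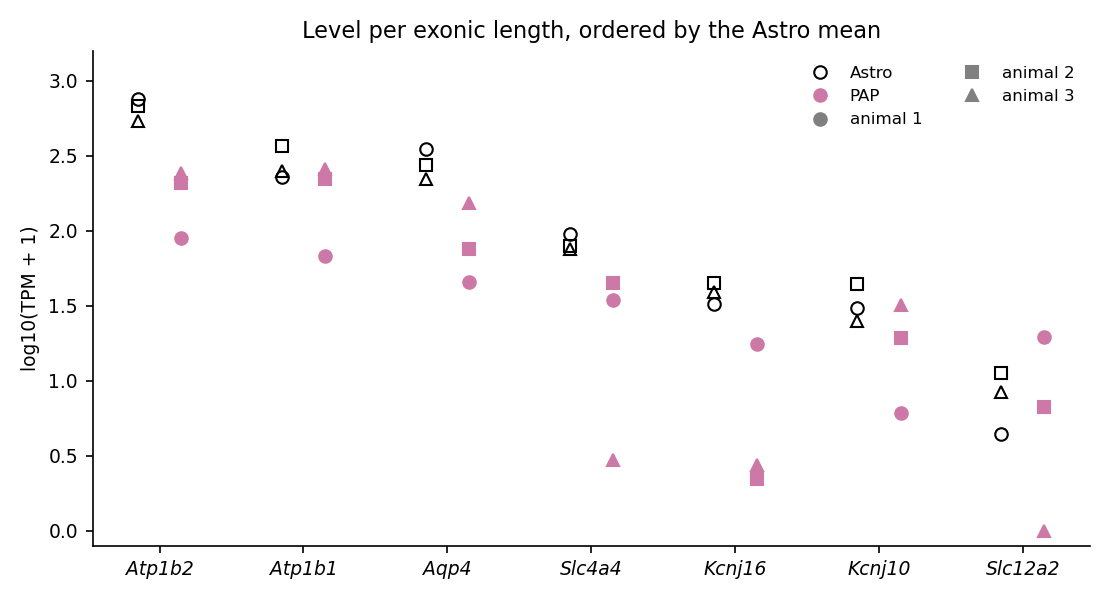
Level of the 7 genes per exonic length, as log10 of TPM plus 1, with one point per pooled library, open for Astro and filled for PAP, ordered by the Astro mean. Atp1b2 lies above the other genes in Astro, and Atp1b1 and Atp1b2 overlap in PAP, where Slc4a4 in animal 3 and Slc12a2 in animal 3 stand far below the other libraries.

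The genes with the pattern most like each of the 7 over the 6 libraries were found by the smallest root mean square difference of centred log2(CPM + 1), among genes with at least 10 counts in every library other than the gene itself (4881 for the 5 that pass that count rule, 4882 for Kcnj16 and Slc12a2). For Aqp4 the nearest was Gja1, the gap junction gene connexin 43 and one of the 12 astrocyte markers, at a difference of 0.11, followed by Ndufc2 and Cxcl14. Gja1 stood at 1687, 1578 and 943 CPM in Astro and at 231, 390 and 934 CPM in PAP, so that here too the compartments lay closest in animal 3. The nearest to Atp1b2 were Cxcl14, at 0.13, Chchd2 and Sdhc. Those nearest to Kcnj10 were Sec62, Aplp1 and BC031181, and those nearest to Atp1b1 were Pcnp, Pcsk1n and Sec62.

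Slc4a4 was most like Mob4, Mzt1 and Pisd, at 0.23 to 0.29, and Mob4 stood at 83.2 and 82.5 CPM in PAP animals 1 and 2 and at 5.29 CPM in animal 3. Mob4 was chosen for this likeness, so its values are a description. Kcnj16 and Slc12a2 had under 10 counts in at least 1 library, so genes as low as they are in PAP were not among the candidates. Within that limit the nearest were Usp2, Ube2n and Rnf34 at 0.39 to 0.41 for Kcnj16, and Fam3c, Hbs1l and Mgea5 at 0.77 to 0.85 for Slc12a2. A likeness over 6 libraries describes these libraries and carries no test.

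The other genes of the same transport routes were read from 5 lists, which hold 60 genes beside the 7. Of these, 53 were tested, and 1 was higher and 11 were lower in PAP by edgeR, 22.6% against 21.3% of all tested genes. Their median log2 fold change was -0.42, near the -0.53 of all tested genes. Among the 11 lower ones, 7 never exceeded 3 counts in a PAP library, as was true of 86.8% of the 2250 genes called lower overall. With the animal as a block edgeR called 0 of the 53, against 133 of all 14618 tested genes. At an unadjusted p under 0.05 that fit held 14 of the 53, a count without a share over all genes here. On group alone, DESeq2 called 22 of the 53, against 5141 of all 14618. Also on group alone, voom called 11, against 3518 of all 14618. Under marker scaling edgeR called 4 of the 53 higher and 5 lower, against 14.2% and 8.93% of all tested genes. Kcnj2, Kcnj11, Slc8a1, Slc8a2, Slc8a3, Wnk3 and Lrrc8e were not tested because of low counts.

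Of 11 tested potassium channel genes 2 were called, both lower in PAP, with a median of -0.09. Kcnk1, which encodes the leak channel TWIK-1, stood at 481, 544 and 312 CPM in Astro and 56.1, 179 and 88.2 CPM in PAP, a log2 fold change of -2.05 ± 0.51 (edgeR adjusted p = 0.0327) that was 0.00 under marker scaling. The other was Kcnj9, below 10 CPM on average and named only to complete the count, after its values were seen. Kcnk2, the gene of the leak channel TREK-1, ranged from 0 to 173 CPM in PAP, and Kcna2, a voltage-gated channel gene, stood at 2.55, 248 and 1.98 CPM there. Neither passed, with edgeR adjusted p values of 0.978 and 0.990.

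Over the 8 further sodium pump genes the median was -0.77 on the log2 scale. Atp1b3, another beta subunit gene, went from 95.0, 149 and 88.5 CPM to 415, 105 and 389 CPM, a log2 fold change of 1.45 that did not pass (edgeR adjusted p = 0.143) but did under marker scaling (3.81, adjusted p = 0.0313). Fxyd1, whose product phospholemman regulates the pump, had a log2 fold change of -1.40 (adjusted p = 0.268), and 0.33 under marker scaling.

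Of 13 tested genes for bicarbonate, proton and sodium exchange 2 were called, both lower in PAP, with a median of -0.84. Slc9a3r1 encodes the scaffold protein NHERF1 and stood at 863, 613 and 810 CPM in Astro and 41.3, 26.3 and 142 CPM in PAP, a log2 fold change of -3.45 ± 0.69 (edgeR adjusted p = 0.0208) that stayed negative under marker scaling (-1.54, adjusted p = 0.110). Car2, carbonic anhydrase, missed the threshold at -2.13 (adjusted p = 0.0535), and Slc4a2, an anion exchanger gene, stood at 0.27 (adjusted p = 0.837).

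The 9 tested genes of cation-chloride cotransport and its kinases held 3 that fell and 1 that rose, with a median of -1.40. Stk39 and Oxsr1 encode the related kinases SPAK and OSR1, which activate NKCC1 by phosphorylation under the control of WNK kinases. Stk39 stood at 46.4, 149 and 85.8 CPM in Astro and 1.02, 2.58 and 1.65 CPM in PAP, on 2 to 5 counts. Oxsr1 stood at 10.0, 10.6 and 8.43 CPM in Astro and 75.0, 102 and 110.0 CPM in PAP. Neither gene's groups overlapped, and the kinases lay on opposite sides: the edgeR log2 fold change was -5.73 ± 0.86 for Stk39 (adjusted p = 0.0200) and 3.30 ± 0.56 for Oxsr1 (adjusted p = 0.0208). Both signs held under marker scaling, at -3.76 (adjusted p = 0.0609) and 5.43 (adjusted p = 0.0135). With the block the log2 fold changes were -5.68 and 3.29, and both calls were lost, at adjusted p values of 0.139 and 0.206.

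The other 2 that fell were Wnk2, a WNK kinase gene with 1 count in the PAP libraries in all, and Slc12a9, at 0 in all of them. The Astro mean of Slc12a9 was 30.2 CPM, which set against the highest floor of a single PAP library is at least 19.5-fold lower in the processes. Wnk1 stood at 33.4 to 55.2 CPM in Astro and 41.3 to 52.6 CPM in PAP, a log2 fold change of 0.08 (edgeR adjusted p = 0.948).

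Of 12 tested genes for water channels and volume-regulated channels 3 were called, all lower in PAP, with a median of -0.79, and all 3 were at 3 counts or fewer in every PAP library. Lrrc8c, a subunit of the volume-regulated anion channel, went from 26.5, 46.9 and 48.7 CPM in Astro to 0, 0 and 0.330 CPM in PAP (edgeR adjusted p = 0.0208). The others were Aqp9 and Tmem206, both under 10 CPM on average and named after their values were seen. Lrrc8d, of the same channel family, stood at 0.66 (adjusted p = 0.775), Ttyh1, another membrane protein gene strong in astrocytes, at -1.17 (adjusted p = 0.250), and Ano6, a scramblase and ion channel gene, at 1.43 (adjusted p = 0.685). These signs were not stable: with the block Lrrc8d was at -0.09 and Ano6 at -0.29, and under marker scaling Ttyh1 was at 0.68.

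**Figure D5:**
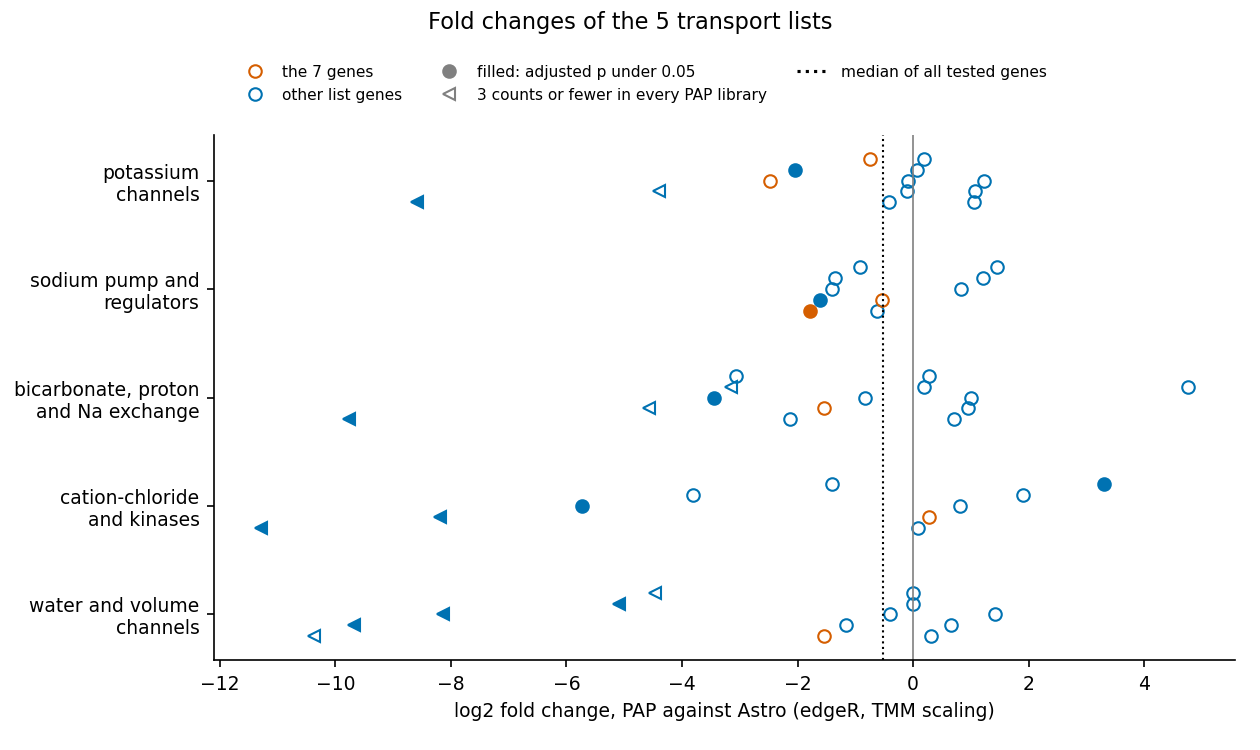
Log2 fold change of PAP against Astro under TMM scaling for the tested genes of the 5 transport lists, one mark per gene, with filled marks for an edgeR adjusted p under 0.05 and triangles for genes with 3 counts or fewer in every PAP library, whose estimates are no measure of size. Oxsr1 is the filled mark on the right at 3.30, and Stk39, the filled circle at -5.73, lies opposite it in the same list.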

How the data were processed

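Per the submitters' processing notes, reads were handled with bcl2fastq 2.18.0.12, Trim Galore 0.4.1, STAR 2.5.2b, SAMtools and HTSeq 0.5.3 on build mm10; annotation and strand setting are not given in the sources used here. The deposited values are raw counts per Ensembl gene, per the file headers and the values, with no scaling by the authors. RNA was amplified from low input, per the labels' protocols, and no molecular identifiers are mentioned, so intervals and floors cover counting error only. Symbols, positions and exonic lengths come from GENCODE M21, in which 47224 of 47643 IDs were found.

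Technical replicates, 8 per library, were summed. Counts were tested with edgeR 4.0.16 (R 4.3.3; filterByExpr with a minimum count of 10, TMM, group alone, threshold 0.05) over 14618 genes, after the script was tested on simulated data. Alternatives used DESeq2 1.42.0, limma 3.58.1 (voom with a variance weight per group), other scalings and filters, and left-out libraries. Libraries of one animal share its number in the labels, which gives the pairing; their deviations from the group means correlated at 0.0327, 0.0185 and -0.0272 in animals 1 to 3. Ratios were tested by exact permutation with scipy 1.17.1. Besides the 7 genes, the text names in each list the 3 genes with the highest mean CPM, those called with a mean of at least 10 CPM, and the 3 genes most like each of the 7. The 7 genes and the lists were chosen with earlier results of these data known. A few of the genes so selected are left out of the text.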

Additional observations from a re-analysis of the deposited data

How the results depend on the processing

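The count of called genes was 3115, and 133 with the animal as a block, 5141 by DESeq2, 1414 with a mean of at least 100 counts, 1707 after thinning to equal depth, 744 under marker scaling with the block, and 115 to 4586 when 1 library was left out. Of these calls 27.8% were higher in PAP, against 61.5% under marker scaling (2081 higher and 1305 lower), 41.6% with a mean of at least 100 counts, 41.5% after thinning and 17.1% by voom. It was 96.2% with the block (128 of 133), 99.1% under marker scaling with the block, and 96.1% to 99.1% without any 1 Astro library. Of the 7 genes 1 was called, 2 by DESeq2, 0 to 3 with 1 library left out, and 0 with the block, by voom, with a mean of at least 100 counts, after thinning and under marker scaling with or without the block. Over all tested genes the calls were 3115 of 14618, 5141 of 14618 by DESeq2, 3518 of 14618 by voom and 133 of 14618 with the block. They were 1414 of 10084 with a mean of at least 100 counts and 1707 of 11247 after thinning. The fit without PAP animal 3, which called 3 of the 7, called 4586 of 16523. For the counts at an unadjusted p that follow, no share of all genes is given here. At an unadjusted p under 0.05, 2 of the 7 passed with the block, 1 by voom, 2 with a mean of at least 100 counts, 2 after thinning, 1 under marker scaling and 0 under marker scaling with the block, and 1 or 2 in the fits without 1 library that called 0. Of the list genes 12 were called, and 0 with the block, 22 by DESeq2, 7 with a mean of at least 100 counts, 3 under marker scaling with the block and 0 to 18 with 1 library left out, the 0 occurring without any 1 Astro library (14 to 17 at an unadjusted p under 0.05).

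Atp1b2 stayed negative but uncalled with the block (-1.87), by voom (-1.81), with a mean of at least 100 counts (-1.60) and after thinning (-1.59), and ranged from -2.12 to -1.50 with 1 library left out. The ranges with 1 library left out were -1.46 to -0.344 for Kcnj10, -0.945 to -0.177 for Atp1b1, -4.60 to -2.05 for Kcnj16, -2.20 to -1.06 for Slc4a4, -1.25 to 0.80 for Slc12a2 and -2.21 to -1.26 for Aqp4, which was -1.49 by DESeq2. Slc12a2 was -1.16 with the block and -1.65 by voom, Kcnj16 was -3.51 with the block, and Slc4a4 was -2.25 with the block and -2.79 by voom. Marker scaling, without and with the block, gave 1.01 and 1.03 for Kcnj10, 1.31 and 1.36 for Atp1b1, 0.18 and 0.19 for Atp1b2, 0.92 and 0.0329 for Slc4a4, 0.38 and 0.38 for Aqp4, and 0.36 and -1.76 for Kcnj16, the only negative value of the 7 in the fit with both. The cause of these changes was not tested. The block changed no other call among the 7. Levels under the floor of 3 counts (0.991 to 1.55 TMM-scaled CPM in PAP) rest on too few counts to be compared, and depth was lower in PAP (Astro held 10.6 times the counts at the median), and 3 animals limit every test.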

Other observations

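In whole astrocytes the level of Aqp4 differed between 2 sets of technical replicates. The share of all genes for which these sets lie apart is not given here, so the difference is not shown to be particular to Aqp4. Its level in replicates 5 to 8 was 11.3%, 10.0% and 10.4% above that in replicates 1 to 4 in Astro animals 1 to 3, with no overlap between the sets of 4 in any animal. In PAP the differences were -9.86%, 8.21% and 19.9%, with no overlap in animal 3 alone. For Slc4a4 the corresponding Astro values were 6.90%, 9.01% and 3.01%, with no overlap in animal 1 alone, and for Atp1b1 they were 1.90%, 8.16% and 7.47%, with no overlap in animal 2 alone. For Atp1b2 the Astro values were -2.58%, -0.97% and -2.43%, with no overlap in animal 1 alone. Kcnj10, Kcnj16 and Slc12a2 had overlapping sets in every Astro and PAP library.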
